A study of Homo sapiens with 20 samples.

Results

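RNAseq of HL60 cells labelled HK3-null was compared with that of Cas9 control cells after 36 h in all-trans retinoic acid (ATRA), and the genotype difference is described by gene function, apart for genes of chromosomes 5, 6, 8, 13 and 15 and for the rest of the genome. The comparison used 6 libraries (3 per genotype) of the 12 RNAseq libraries and of the 20 libraries in the series. HL60 is an established human cell line of acute promyelocytic origin. Both genotypes carried Cas9 from a lentiviral vector with puromycin selection, and the knockout lines were grown out as single clones after limiting dilution, so each genotype may stand for 1 clone here; the knockout label is the same in every HK3-null library. The ATRA groups received 1 µM ATRA, and the other 6 RNAseq libraries received 0.01% DMSO, the solvent, for the same time. The methods text describes biological replicates. Differences between clones and effects of the edited gene cannot be told apart in these data.

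HK3 is a hexokinase, an enzyme that phosphorylates glucose, and is found mainly in myeloid cells. ATRA binds retinoic acid receptors and drives promyelocytic cells towards neutrophils, which fill granules with antimicrobial proteins, assemble an oxidase and later die by apoptosis. Apoptosis in these cells is set by the BCL-2 family, in which BH3-only proteins such as PUMA (gene BBC3), BMF and NOXA (gene PMAIP1) counter the prosurvival members.

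The deposited values are log2 of counts that were scaled between libraries and rounded, called normalized counts here. They were fitted with limma after adding 1, and 13429 of 28051 named genes had a group mean above 3 on the log2 scale in at least 1 group and were tested. A gene was called when its Benjamini-Hochberg adjusted p was under 0.05 and its change at least 2-fold. A single named gene passes the test at an adjusted p under 0.05. All changes below are log2(normalized count + 1) in the libraries labelled HK3-null minus that in Cas9 control, in ATRA unless DMSO is named.

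Estimated depth before scaling was 22700000 to 37000000 counts per library, and that of HK3-null ATRA replicate 2 was poorly determined. Of the promyelocytic genes used to check the cell type, MPO, myeloperoxidase, ranged from 440811 to 557573 normalized counts and did not pass the test (log2 change 0.14, standard error 0.08, adjusted p = 0.168, limma). The other genes of this check were not all alike between genotypes. CTSG was called lower, and ELANE, SPI1 and CEBPA were higher past the test but short of the fold threshold. PRTN3 did not pass, and AZU1 and CD33 were not called. Markers of erythroid cells and platelets summed to 41 to 59 normalized counts with the HK3-null label and 38 to 44 in Cas9 control, with 5 of 14 genes at 0 in all 6 libraries, among them HBA1 and PF4. Markers of T, B and NK cells summed to 1308 to 1444 against 382 to 405, most of it NKG7, and 4 of the 5 tested were called higher (NKG7, PAX5, GNLY and CD3E), while CD2 and MS4A1 were at 0. PAX5, a B cell factor, had 84, 72 and 70 against 1, 0 and 0. Markers of epithelium and stroma summed to 638 to 757 against 198 to 273, most of it VIM. The part of other cells in the results was not tested, and in bulk RNA fewer cells of a type and less RNA per cell cannot be told apart. Cas9 control DMSO replicate 1 stood apart: over the 30 genes above 100 normalized counts in every HK3-null library and with a median of at most 2 in Cas9 control, it summed to 201, against 12 to 45 in the other 5 Cas9 control libraries. That library enters no level or change in ATRA, but it enters the comparison with DMSO. It also enters the standard errors and p-values in ATRA, since the 4 groups share 1 estimate of the spread. Without it 3130 genes were called in ATRA, and 3088 of these were among the 3094 called with all libraries.

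The targeted gene was not lower. HK3 (chromosome 5, 176880869 to 176899346, GRCh38) had 1384, 1285 and 1975 normalized counts in the ATRA libraries labelled HK3-null and 1305, 1298 and 1850 in those of Cas9 control. The ranges overlapped and the change was 0.05 (standard error 0.20, adjusted p = 0.828, limma). In DMSO the libraries labelled HK3-null had 344, 302 and 346 and the controls 90, 65 and 105, so that the genotype difference was smaller in ATRA than in DMSO by 1.89 on the log2 scale (interaction −1.89, standard error 0.28, adjusted p = 0.00117, limma). Less the median of chromosome 5, HK3 was 0.83 higher in ATRA (adjusted p = 0.00351, limma; 0.00351 to 0.934 over the alternatives tried for HK3). A small insertion or deletion need not lower RNA, so this level does not check the label. The methods checked the knockout clones by sequencing the cut site in genomic DNA and by mass spectrometry of the protein. Genotypes are named by label throughout.

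In ATRA 3094 of the 13429 tested genes were called (23.0%), 1669 higher (12.4%) and 1425 lower (10.6%) with the HK3-null label. In DMSO 20.3% were called. For 63.0% of the tested genes the 3 libraries of one genotype all lay beyond the 3 of the other, so that separation alone was common. The change was not spread evenly over the genome. On chromosome 8, 227 of 433 tested genes were called higher (52.4%) and 7 lower (1.62%), with a median change of 1.05. Chromosome 6 had 159 of 677 higher (23.5%) and 36 lower (5.32%), with a median of 0.56. On these 2 chromosomes 93.8% and 79.8% of the tested genes had a change above 0.

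Chromosomes 15, 5 and 13 lay the other way. On chromosome 15, 189 of 438 tested genes were called lower (43.2%) and 14 higher (3.20%), with a median change of −0.96. Chromosome 5 had 214 of 579 lower (37.0%) and 31 higher (5.35%), with a median of −0.77, and chromosome 13 had 54 of 243 lower (22.2%) and 16 higher (6.58%), with a median of −0.57. Each library labelled HK3-null showed the same shift against the Cas9 control mean: its median lay between −0.95 and −0.90 on chromosome 15, between −0.79 and −0.76 on chromosome 5, between −0.59 and −0.51 on chromosome 13, between 0.52 and 0.57 on chromosome 6 and between 1.04 and 1.07 on chromosome 8. The shifts in DMSO were much alike, with medians of −0.94, −0.75, −0.57, 0.51 and 1.07 in the same order of chromosomes. These chromosomes were chosen with earlier results known, so the medians are a description. On the rest of the genome 1184 of 10749 tested genes were called higher (11.0%) and 874 lower (8.13%), with a median of 0.02. Medians of the other 18 chromosomes, Y and the mitochondrial genome aside, ran from −0.12 on chromosome 22 to 0.12 on chromosome 19, and none of the 28 mitochondrial genes was called. A further 310 tested genes had no chromosome in the RefSeq table.

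**Figure D1:**
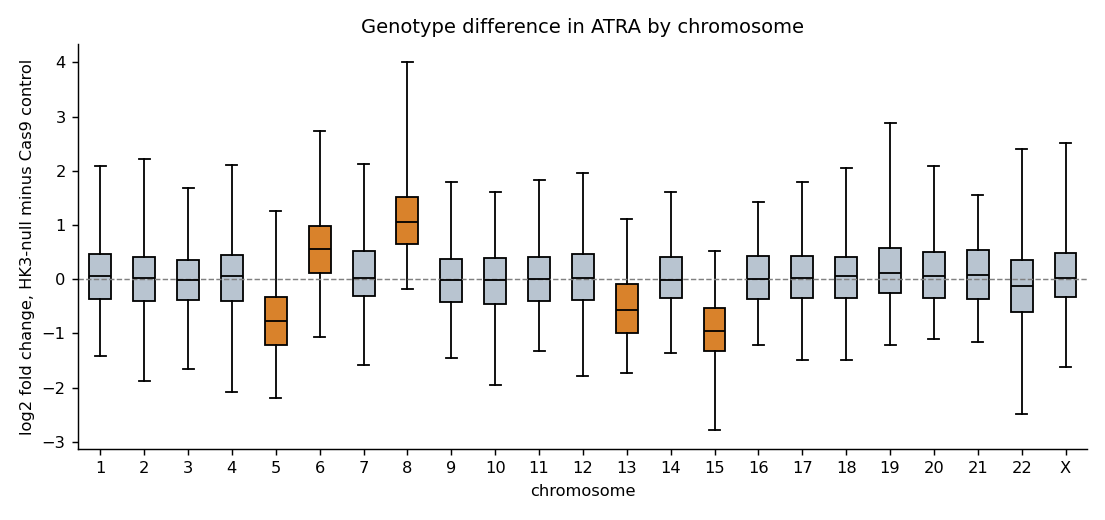
Log2 fold change in ATRA (libraries labelled HK3-null minus Cas9 control, vertical axis) of the tested genes of each chromosome (horizontal axis). Boxes span the quartiles with the median as a line, whiskers the 5th to 95th percentile, and orange marks chromosomes 5, 6, 8, 13 and 15, whose medians of −0.77, 0.56, 1.05, −0.57 and −0.96 lie outside the range of −0.12 to 0.12 of the other chromosomes.

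The shifts ran along whole chromosomes. With the tested genes of each chromosome cut by position into 5 runs of like size, the medians on chromosome 5 were −0.71, −0.99, −0.98, −0.59 and −0.55 from the short to the long arm end. The run from SPATA9 to KIF20A (95652181 to 138187723) held 55 genes called lower and 3 called higher of 116. On chromosome 8 the medians were 1.33, 1.03, 1.06, 1.05 and 0.87, and on chromosome 15 they stayed between −1.02 and −0.90. Chromosome 6 stayed between 0.45 and 0.62, and chromosome 13 between −0.64 and −0.40. No run on these 5 chromosomes had a median of the other sign.

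Among the BH3-only genes, which start the mitochondrial pathway of apoptosis, 3 of 7 tested members were called higher and 1 lower. Over all tested genes 12.4% were called higher and 10.6% lower. The median change of the list was 0.62, beside 0.01 for all tested genes. BBC3 encodes PUMA, which binds all prosurvival BCL-2 proteins. BBC3 (chromosome 19, 47220824 to 47232860) had 203, 180 and 98 normalized counts with the HK3-null label and 31, 30 and 22 in Cas9 control. The groups did not overlap, and the change was 2.44 (standard error 0.37, adjusted p = 0.0001, limma). The difference in DMSO was 2.60, and the interaction did not pass (−0.16, adjusted p = 0.91, limma).

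BMF and PMAIP1 differed from BBC3 in this respect. BMF, a BH3-only protein tied to the cytoskeleton, had 752, 948 and 862 normalized counts against 302, 387 and 384, a change of 1.26 (standard error 0.13, adjusted p = 3.09e-06, limma). Every library labelled HK3-null was above every control, although BMF lies on chromosome 15 (40087890 to 40108879), where the median change was −0.96. Less that median its change was 2.21. In DMSO it had 468, 536 and 462 against 571, 684 and 539. That difference of −0.29 did not pass (adjusted p = 0.0773, limma), and it lay above the DMSO median of chromosome 15, −0.94. The interaction passed (1.54, standard error 0.18, adjusted p = 0.000238, limma).

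PMAIP1 encodes NOXA, which binds MCL1. It lies on chromosome 18 (59899996 to 59904305) and had 3563, 2614 and 2356 normalized counts in ATRA with the HK3-null label against 1715, 998 and 938. All 3 lay above the controls, with a change of 1.26 (standard error 0.22, adjusted p = 0.0003, limma). In DMSO it had 509, 411 and 395 against 613, 518 and 443, ranges that overlap, and the interaction was 1.51 (standard error 0.31, adjusted p = 0.0087, limma). PMAIP1 was thus at its highest level in ATRA with the HK3-null label, in 3 of 3 libraries.

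The other BH3-only genes moved less. BCL2L11, which encodes BIM, had 1963, 1684 and 1790 normalized counts against 1691, 1106 and 862, a change of 0.62 (standard error 0.21, adjusted p = 0.0229, limma). Its highest control library was above the lowest library labelled HK3-null. The adjusted p was 0.0675 without Cas9 control ATRA replicate 2, 0.1 without replicate 3 and 0.07 without HK3-null ATRA replicate 1. In each pair with the same replicate number the library labelled HK3-null was the higher. With the replicate number as a block the adjusted p of BCL2L11 was 0.000211 (limma). BID, the caspase 8 substrate, changed by −0.22 (standard error 0.10, adjusted p = 0.0742, limma; 0.000858 with the replicate number as a block). BAD, which is held inactive by phosphorylation, fell by 0.37 (adjusted p = 0.00689, limma). BIK, which acts at the endoplasmic reticulum, had 57, 34 and 29 against 110, 103 and 61 and fell by 1.18 (standard error 0.27, adjusted p = 0.00234, limma). In DMSO its means were 139 and 116, and its interaction of −1.42 (adjusted p = 0.0367, limma) did not pass without Cas9 control DMSO replicate 1 (0.0684).

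**Figure D2:**
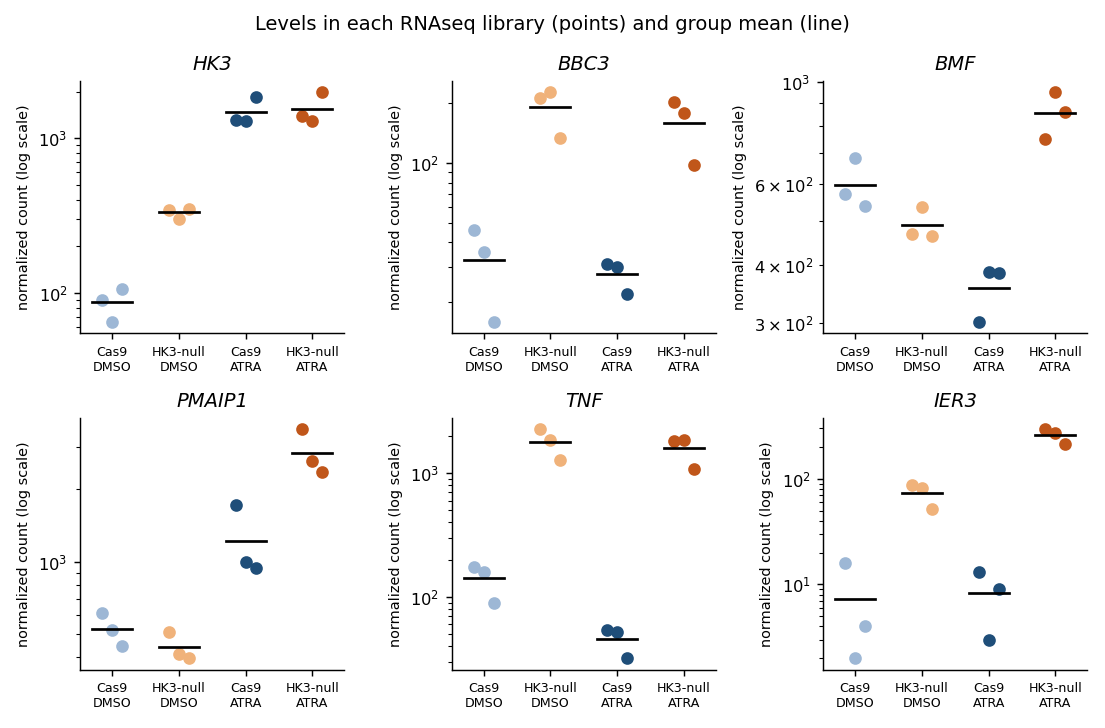
Normalized counts (log axis) of HK3, BBC3, BMF, PMAIP1, TNF and IER3 in each of the 12 RNAseq libraries (points, 3 per group) with group means (lines). In ATRA the HK3 groups overlap while the other 5 genes are higher in all 3 libraries labelled HK3-null, and BMF and PMAIP1 are not higher in DMSO, with interactions of 1.54 and 1.51.

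Of the 7 tested BCL-2 prosurvival and effector genes, BCL2A1 alone was called, and it was higher, where 23.0% of all tested genes were called. This NF-kB target gene lies on chromosome 15 and had 523, 549 and 559 normalized counts against 193, 155 and 169, a change of 1.66 (standard error 0.13, adjusted p = 3.29e-07, limma), against the direction of its chromosome. BCL2 itself had 492, 491 and 496 against 604, 646 and 639 and fell by 0.35 (standard error 0.06, adjusted p = 0.000419, limma), whereas in DMSO it was higher, 3233 against 1923, with an interaction of −1.10 (adjusted p = 1.41e-05, limma). MCL1, the partner of NOXA, rose by 0.24 (adjusted p = 0.00466, limma) and BCL2L1 by 0.26 (adjusted p = 0.0132, limma). The effector BAX, on chromosome 19, rose by 0.49 (adjusted p = 1.87e-05, limma), while the effector BAK1, on chromosome 6, fell by 0.42 (adjusted p = 0.00058, limma). BCL2L2 changed by 0.08 and did not pass (adjusted p = 0.499, limma).

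Downstream of the mitochondria 1 of 22 tested caspase and apoptosome genes was called higher and 1 lower, beside 12.4% and 10.6% of all tested genes. APAF1, the scaffold of the apoptosome, had 2420, 2750 and 4095 normalized counts against 921, 1205 and 1590, all libraries labelled HK3-null being above the controls (change 1.32, standard error 0.27, adjusted p = 0.00102, limma). Of 14 tested genes of death receptors and their ligands, 6 were called higher and 0 lower, but 5 of the 6 lay on chromosomes 8 and 6. All 4 TRAIL receptor genes, TNFRSF10A to TNFRSF10D, are on chromosome 8. TNFRSF10C, a decoy receptor without a death domain, had 131, 120 and 130 against 6, 10 and 5 (change 4.05, standard error 0.34, adjusted p = 5.34e-07, limma). On the rest of the genome RIPK3, the kinase of necroptosis, was the called member, with 738, 820 and 746 against 279, 353 and 384 (change 1.19, standard error 0.15, adjusted p = 1.4e-05, limma). Less the chromosome medians, 4 members were called.

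The TNF and NF-kB list had 11 of 27 tested members called higher and 0 lower, with a median change of 0.93. TNF, the cytokine ligand, had 1826, 1854 and 1075 normalized counts with the HK3-null label against 54, 52 and 32. The groups lay far apart, 34.5-fold in their means, with a change of 5.07 (standard error 0.31, adjusted p = 2.59e-08, limma). In DMSO its means were 1793 ± 493 and 142 ± 45.4 (SD, n = 3 each), a change of 3.67, and the interaction of 1.40 did not pass without the replicate block (adjusted p = 0.0628, limma) and passed with it (2.25e-06). TNF lies on chromosome 6 (31575565 to 31578336), and less the median of that chromosome its change was 4.51.

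IER3, an early response gene that dampens cell death, is also on chromosome 6 (30743199 to 30744547). It had 295, 269 and 213 normalized counts against 13, 3 and 9, again without overlap, a change of 4.97 (standard error 0.57, adjusted p = 8.11e-06, limma). In DMSO the means were 73.3 ± 18.7 and 7.33 ± 7.57 (SD, n = 3 each), with 16 in Cas9 control DMSO replicate 1 and 2 and 4 in the others, and the interaction of 1.45 did not pass (adjusted p = 0.329, limma). Of 9 list members on chromosomes 5, 6 and 8, 6 were called higher, and of 18 on the rest of the genome 5 were (27.8%, beside 11.0% of all tested genes there). BCL3, a nuclear IkB protein, had 709, 1096 and 581 against 103, 154 and 60 (change 2.95, standard error 0.36, adjusted p = 1.38e-05, limma). ICAM1, an adhesion molecule for leukocytes, had 2538, 2876 and 1826 against 604, 637 and 514 (change 2.02, adjusted p = 0.000225, limma), but its difference was larger in DMSO (4.31; interaction −2.29, adjusted p = 0.0102, limma). NFKBIZ, another nuclear IkB protein, was low, with 19, 26 and 16 against 8, 4 and 4 (change 1.78, adjusted p = 0.000375, limma).

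Chemokine and cytokine genes lay mostly off the shifted chromosomes, where 8 of 15 tested members were called higher (53.3%) and 1, OSM, lower. CXCL8, which attracts neutrophils, had 2483, 1878 and 1293 normalized counts against 364, 276 and 272 (change 2.59, standard error 0.31, adjusted p = 1.19e-05, limma). CCL3 had 65, 57 and 16 against 2, 2 and 4 (change 3.50, standard error 0.64, adjusted p = 0.000396, limma), and CXCL16 had 67, 90 and 68 against 13, 4 and 10 (change 3.04, standard error 0.42, adjusted p = 3.9e-05, limma). In each of these the groups did not overlap. On the deposited log2 scale CXCL16 did not pass (adjusted p = 0.207, limma).

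BTG2, an antiproliferative gene, had 1233, 1550 and 857 normalized counts against 116, 103 and 105 (change 3.44, standard error 0.31, adjusted p = 8.43e-07, limma), without overlap. PLK3, a stress kinase, had 253, 253 and 212 against 140, 84 and 68 (change 1.35, standard error 0.23, adjusted p = 0.000244, limma). TP53INP1, on chromosome 8, had 62, 45 and 39 and was at 0 in all 3 control libraries, at least 14.5-fold higher, taking 3 counts in a library as the floor for a listed 0.

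Genes of G1 control were called higher in 7 of 27 and lower in 1, beside 12.4% and 10.6% of all tested genes; 3 of the 7 lay on chromosomes 6 and 8, and on the rest of the genome 4 of 20 were higher, beside 11.0% of all tested genes there. Their changes were of both signs among the D cyclins, which drive entry into S phase. CCND1 had 1895, 1633 and 1382 normalized counts against 134, 81 and 64 (change 4.18, standard error 0.37, adjusted p = 7.73e-07, limma). CCND2 had 226, 221 and 199 against 4294, 3665 and 2888 (change −4.05, standard error 0.14, adjusted p = 2.27e-10, limma). Neither pair of groups overlapped. The cell cycle inhibitor CDKN1A, on chromosome 6, had 147, 158 and 111 against 2, 3 and 1 (change 5.58, standard error 1.21, adjusted p = 0.00149, limma), and did not pass on the deposited log2 scale (adjusted p = 0.0991). CDKN2B, another inhibitor, had 22, 40 and 54 against 5, 2 and 5 (change 2.97, adjusted p = 2.91e-05, limma).

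Genes that copy and divide the genome moved little off the shifted chromosomes. On the rest of the genome 0 of 38 tested replication genes and 0 of 29 mitosis genes were called by limma. Without the fold threshold 15 of these 38 and 12 of these 29 had an adjusted p under 0.05. Over the whole lists it was 23 of 47 and 21 of 39, beside 61.2% of all tested genes. Called members on the shifted chromosomes included GINS4 (chromosome 8, higher by 1.42), DUT (chromosome 15, lower) and CCNB2 (chromosome 15, lower by 1.05). Less the chromosome medians the count in both lists was 0. Of 60 tested genes of double-strand break repair 4 were called higher and 3 lower, beside 12.4% and 10.6% of all tested genes. On the rest of the genome 2 of 43 were higher and 0 lower. Less the chromosome medians 2 were higher and 0 lower. TP53BP1, which directs breaks to end joining, had 550, 535 and 666 against 1812, 1771 and 2078 (change −1.69, standard error 0.10, adjusted p = 2.48e-08, limma). It lies on chromosome 15, and less that median its change was −0.74. RNF169, a ubiquitin ligase at breaks, had 1932, 1597 and 1327 against 712, 603 and 460 (change 1.46, adjusted p = 5.32e-05, limma), and FAM175A, the older symbol of ABRAXAS1 in the BRCA1-A complex, had 874, 823 and 752 against 396, 332 and 333 (change 1.21, adjusted p = 3.67e-07, limma).

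Neutrophil granule genes made up the list with the highest share of calls off the shifted chromosomes. Of 16 tested genes of specific and gelatinase granules there, 14 were called higher (87.5%) and 0 lower, and the median change of the list was 3.79. FCN1, the lectin ficolin-1, had 340, 309 and 333 normalized counts against 0, 0 and 4 (adjusted p = 5.87e-08, limma). ORM2, an acute phase glycoprotein, had 1091, 1234 and 1262 against 24, 21 and 14 (change 5.89, standard error 0.21, adjusted p = 3.78e-10, limma), and PGLYRP1, which binds peptidoglycan, had 83, 73 and 99 against 0, 0 and 3. ARG1, arginase, on chromosome 6, had 531, 499 and 474 against 7, 3 and 3 (change 6.64, standard error 0.25, adjusted p = 5.97e-10, limma). In DMSO the list's median was 4.20, so these genes differed without ATRA too.

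Azurophil granule genes, which are made earlier, were divided: 6 of 14 were called higher and 2 lower, with a median of 0.77. Of the 6, 3 lay on chromosomes 6 and 8. On the rest of the genome 3 of 11 were higher and 2 lower, with a median of 0.21. Beside these stand 11.0% higher and 8.13% lower of all tested genes there. BPI, which kills Gram-negative bacteria, had 23838, 22450 and 23187 normalized counts against 824, 869 and 904 (change 4.74, standard error 0.10, adjusted p = 4.58e-12, limma). LYZ, lysozyme, had 28965, 27895 and 25743 against 1778, 1691 and 1630 (change 4.02, standard error 0.06, adjusted p = 3.61e-13, limma). DEFA3, a defensin on chromosome 8, had 2865, 3084 and 3132 against 0, 2 and 0, and its reads may be shared with near-identical copies. PRSS57, a serine protease, had 344, 314 and 257 against 1733, 1655 and 1367 (change −2.38, standard error 0.11, adjusted p = 2.39e-09, limma), and CTSG was the other member called lower. Neither ELANE nor PRTN3, the main serine proteases of these granules, was called, with changes of 0.68 (adjusted p = 6.24e-06, limma) and 0.08 (adjusted p = 0.468, limma).

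The phagocyte NADPH oxidase, which makes superoxide, had 3 of 7 tested members called higher, beside 12.4% of all tested genes. CYBB, its catalytic subunit, had 47716, 45030 and 44349 normalized counts against 6412, 5871 and 5973 (change 2.91, standard error 0.11, adjusted p = 4.71e-10, limma). The cytosolic subunit gene NCF1, with 11363, 11704 and 10855 against 4635, 4416 and 4189, was higher by 1.36, with reads possibly split among pseudogene copies. Both differed more in DMSO, with changes of 5.20 for CYBB and 3.42 for NCF1 (interactions −2.29 and −2.06; adjusted p = 2.39e-06 and 0.000151, limma). NCF4 and RAC2 rose by 0.96 and 0.94, CYBA rose by 0.51 and RAC1 fell by 0.32, each past the test. Less the chromosome medians, 5 of the 7 were called, since NCF4 and RAC2 then lay past the fold threshold.

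**Figure D3:**
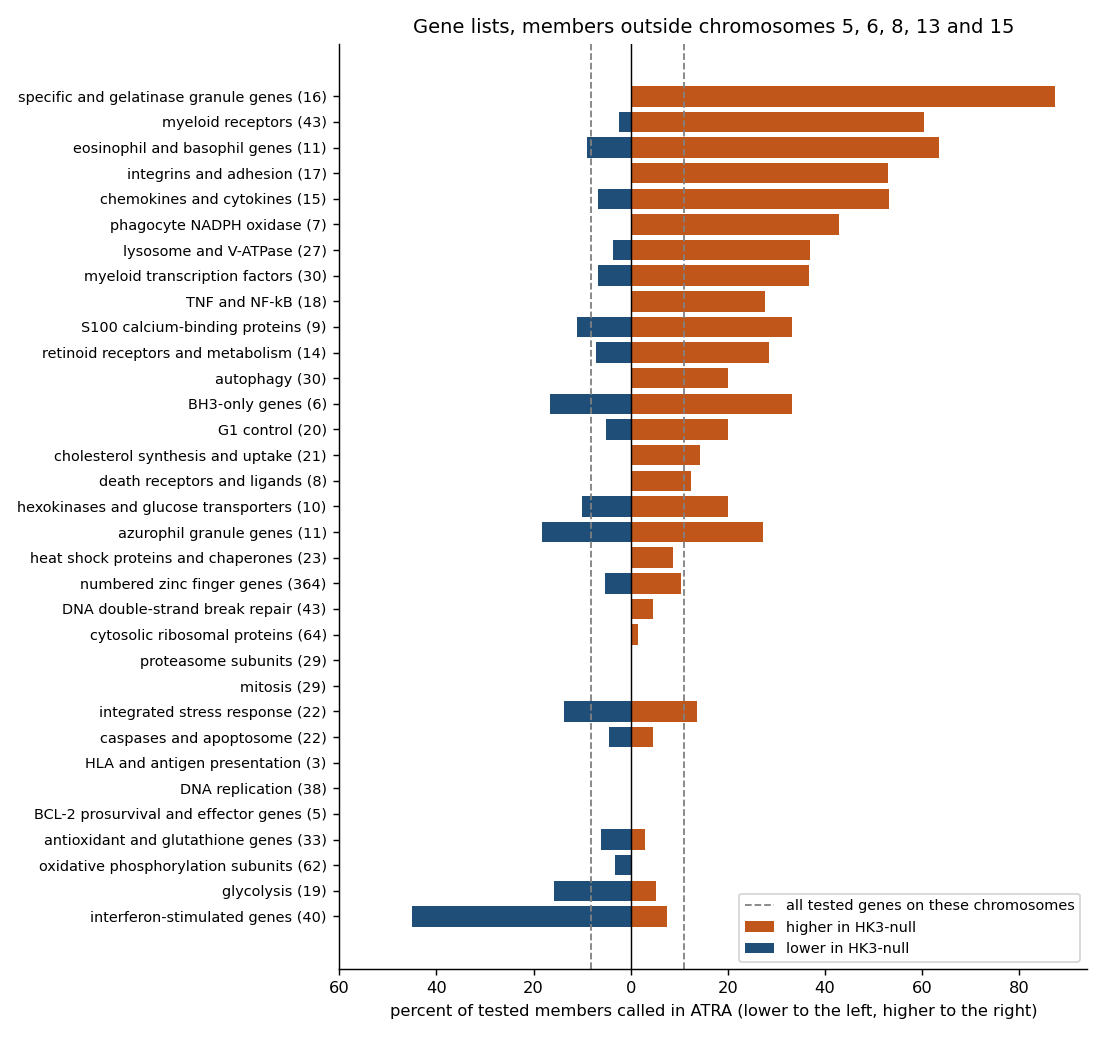
Percent of the tested members of gene lists called higher (orange, to the right) or lower (blue, to the left) in ATRA with the HK3-null label, outside chromosomes 5, 6, 8, 13 and 15. The number tested is in brackets, dashed lines give the shares over all tested genes of these chromosomes (11.0% and 8.13%), and granule genes (87.5% higher) and interferon-stimulated genes (45.0% lower) lie at the ends.

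Of 46 tested myeloid receptors 28 were called higher and 2, CSF1R and LILRA2, lower. On the rest of the genome 26 of 43 were higher (60.5%, beside 11.0% of all tested genes there). The median change of the list was 1.44, or 1.34 with genes at 0 in a group set to their bound. FPR1, the receptor of formyl peptides, had 223, 204 and 233 normalized counts against 13, 5 and 9 (change 4.55, standard error 0.28, adjusted p = 3.06e-08, limma). The lectin receptor CLEC4D had 181, 146 and 132 against 4, 3 and 0, and CD14, a receptor for lipopolysaccharide on chromosome 5, had 95, 77 and 90 against 2, 1 and 4. Integrins and adhesion genes were called higher in 9 of 17 and lower in 0, beside 12.4% and 10.6% of all tested genes. CEACAM1 had 1794, 1894 and 2978 against 120, 152 and 228 (change 3.74, standard error 0.36, adjusted p = 1.76e-06, limma, and 0.152 on the deposited log2 scale) and PECAM1 had 1455, 1217 and 1319 against 153, 144 and 168 (change 3.09, standard error 0.13, adjusted p = 9.65e-10, limma). The maturation markers ITGAM and CD38 rose by 0.62 and 0.38 in ATRA (adjusted p = 0.000767 and 0.0215, limma) and differed far more in DMSO, by 3.72 and 5.01 (interactions −3.10 and −4.63; adjusted p = 5.36e-07 and 4.02e-08, limma).

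S100 genes, calcium-binding proteins of neutrophils, had 3 of 9 tested members higher and 1 lower, beside 12.4% and 10.6% of all tested genes. S100A8 had 16095, 16612 and 16670 normalized counts against 1131, 1186 and 1131 (change 3.84, standard error 0.06, adjusted p = 1.29e-12, limma), S100A12 had 331, 324 and 310 against 4, 1 and 0, and S100A10 had 4, 5 and 4 against 42, 34 and 44. In the list of eosinophil and basophil genes 7 of 11 tested members were called higher, beside 12.4% of all tested genes. They were EPX, PRG2, PRG3, RNASE2, CLC, CCR3 and SIGLEC8. MS4A2 was called lower, and CPA3, GATA2 and ALOX15 were not called. HDC, FCER1A, TPSAB1 and TPSB2 were among the members too low to be tested. PRG2, the major basic protein, had 51351, 51426 and 42445 against 329, 391 and 252 (change 7.24, standard error 0.13, adjusted p = 1.47e-12, limma). EPX, eosinophil peroxidase, had 391, 346 and 385 against 0, 3 and 1, and CLC, the protein of Charcot-Leyden crystals, had 343, 410 and 317 against 12, 16 and 20. For PRG2 the means in DMSO were 166090 and 7723, so that ATRA libraries of both genotypes were lower, and the interaction was 2.81 (adjusted p = 1.96e-06, limma).

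Of 36 tested myeloid transcription factors 14 were called higher and 2, IRF8 and HOXA10, lower, beside 12.4% and 10.6% of all tested genes. KLF2, a transcription factor of the Krüppel family, had 35, 24 and 44 against 0 in each, at least 10.2-fold higher, and EGR2 had 80, 54 and 47 against 4, 4 and 0 (adjusted p = 0.00018, limma, and 0.0683 on the deposited log2 scale). EGR1, an immediate early gene on chromosome 5, had 353, 263 and 242 against 45, 38 and 28 (change 2.92, standard error 0.23, adjusted p = 3.18e-07, limma). SPI1, which encodes PU.1, rose by 0.65 (adjusted p = 6.23e-07, limma) and CEBPA by 0.47 (adjusted p = 0.00137, limma), both short of the fold threshold.

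**Figure D4:**
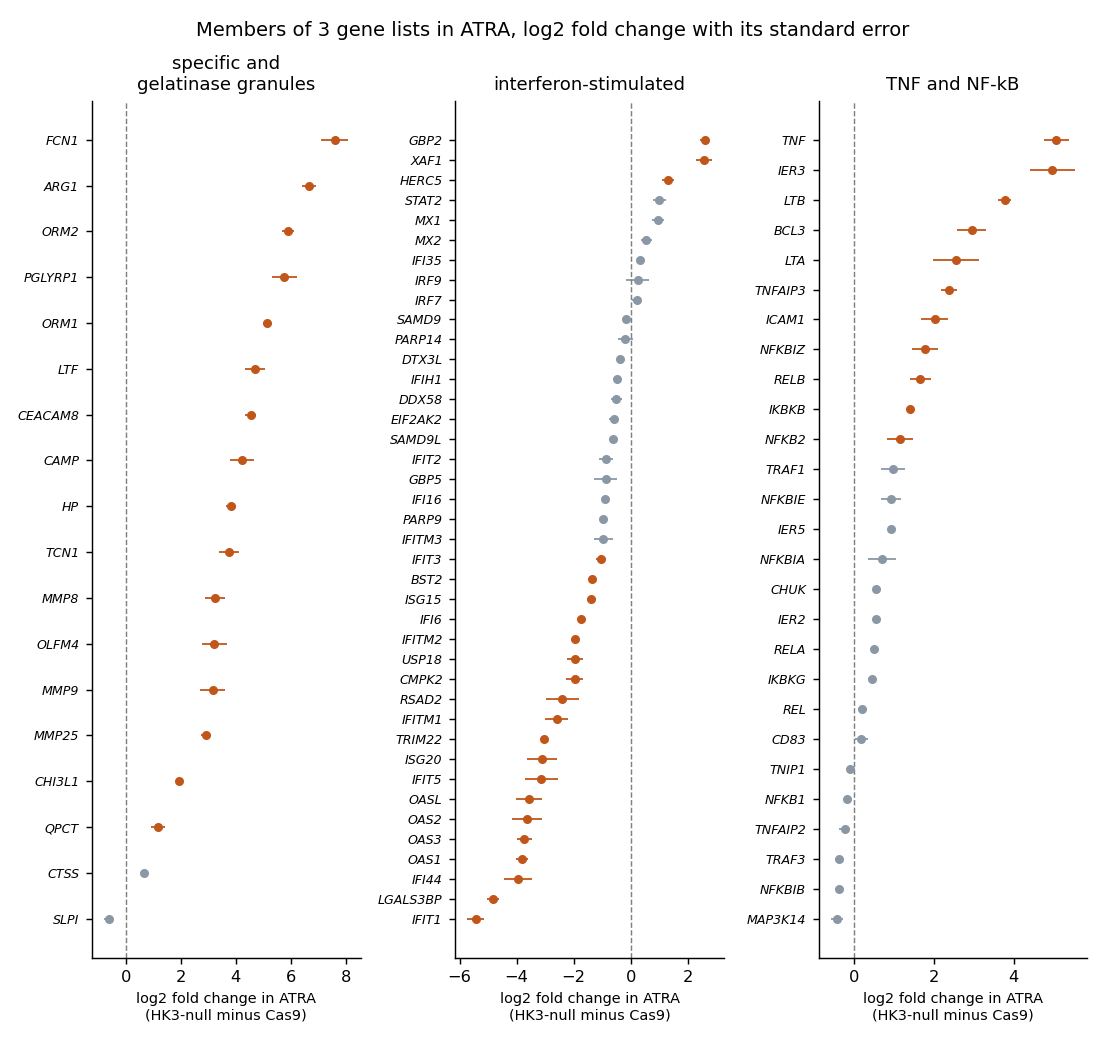
Log2 fold change in ATRA (libraries labelled HK3-null minus Cas9 control, horizontal axis) with its standard error (bars) for tested members of 3 lists, 1 interferon-stimulated gene that was not called being left out. Orange points are called; 16 of 18 granule genes are called higher, 19 of 41 interferon-stimulated genes lower and 3 higher, and 11 of 27 TNF and NF-kB genes higher.

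Of 16 tested genes of retinoid receptors and metabolism 4 were called higher and 1, ALDH1A1, lower, beside 12.4% and 10.6% of all tested genes. TGM2, tissue transglutaminase, a well-known ATRA-induced gene, had 32339, 30084 and 39244 normalized counts against 801, 946 and 1393 (change 5.05, standard error 0.53, adjusted p = 3.61e-06, limma). In DMSO it had 4, 4 and 12 against 10, 1 and 2, and the interaction was 4.28 (adjusted p = 0.00325, limma). CYP26A1, which degrades retinoic acid, had 94, 59 and 32 against 4, 3 and 1 (change 4.07, standard error 0.50, adjusted p = 1.38e-05, limma), with means of 0.333 and 0 in DMSO and an interaction of 3.73 (adjusted p = 0.00506, limma). On the deposited log2 scale the CYP26A1 change did not pass (adjusted p = 0.121). DHRS9, a retinol dehydrogenase, had 127, 157 and 208 against 7, 12 and 20, and its change of 3.64 compares with 3.78 in DMSO.

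The RefSeq promoter of CYP26A1 (GRCh38.p14, chr10:93073643-93073942, plus strand, 250 bases before to 50 after a start site) is shown because it holds a DR5 element, a direct repeat of the hexamers bound by retinoic acid receptors with 5 bases between them. The capitals mark the match, read on the minus strand, which begins 90 bases before the start. CYP26A1: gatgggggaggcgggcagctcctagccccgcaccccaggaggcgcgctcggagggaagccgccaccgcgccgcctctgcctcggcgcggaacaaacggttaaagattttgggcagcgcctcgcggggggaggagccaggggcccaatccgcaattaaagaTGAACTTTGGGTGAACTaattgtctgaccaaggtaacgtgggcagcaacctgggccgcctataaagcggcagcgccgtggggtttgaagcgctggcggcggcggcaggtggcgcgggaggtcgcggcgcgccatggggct
DR5 was searched on both strands, and 31 of 35116 RefSeq promoters of this length hold it (0.0883%). Of 13 tested genes of the retinoid list with a promoter in RefSeq's list, 2 held it in any of their promoters, a count of genes and not of promoters. The table holds another start site of CYP26A1 whose window has no match, and the window shown was chosen for its match.

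Interferon-stimulated genes went the other way. Of 41 tested members 19 were called lower and 3 higher (HERC5, XAF1 and GBP2), with a median change of −0.96, and on the rest of the genome 18 of 40 were lower (45.0%, beside 8.13% of all tested genes there). IFIT1, which binds foreign RNA caps, had 1, 2 and 1 normalized counts with the HK3-null label against 116, 81 and 101 (change −5.44, standard error 0.29, adjusted p = 8.5e-09, limma). LGALS3BP, a secreted glycoprotein, had 103, 73 and 81 against 2468, 2337 and 2519 (change −4.83, standard error 0.22, adjusted p = 2.18e-09, limma). IFI44 was at 0 in all 3 against 16, 19 and 10, at least 4.86-fold lower, and ISG20, a nuclease gene on chromosome 15, had 0, 1 and 0 against 5, 10 and 19. The fall of IFIT1 was larger in ATRA than in DMSO (interaction −2.31, adjusted p = 0.00328, limma), while that of LGALS3BP was smaller (interaction 1.48, adjusted p = 0.00885, limma). IRF7, a factor of the interferon response, changed by 0.21 and did not pass (adjusted p = 0.238, limma); it was named after its values were seen.

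Promoters of 2 of the genes called lower are shown for a core of the interferon-stimulated response element, which interferon-activated factors bind. It was searched on both strands as TTTC, any 2 bases and TTTC. Capitals mark its matches; both are GRCh38.p14, plus strand, with IFIT1 at chr10:89392373-89392672 and IFI44 at chr1:78649539-78649838.
IFIT1: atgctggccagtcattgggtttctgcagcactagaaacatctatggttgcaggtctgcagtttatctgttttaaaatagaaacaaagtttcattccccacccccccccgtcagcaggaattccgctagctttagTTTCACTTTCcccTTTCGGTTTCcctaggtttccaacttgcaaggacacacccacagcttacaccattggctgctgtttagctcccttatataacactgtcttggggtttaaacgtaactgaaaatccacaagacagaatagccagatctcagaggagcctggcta
IFI44: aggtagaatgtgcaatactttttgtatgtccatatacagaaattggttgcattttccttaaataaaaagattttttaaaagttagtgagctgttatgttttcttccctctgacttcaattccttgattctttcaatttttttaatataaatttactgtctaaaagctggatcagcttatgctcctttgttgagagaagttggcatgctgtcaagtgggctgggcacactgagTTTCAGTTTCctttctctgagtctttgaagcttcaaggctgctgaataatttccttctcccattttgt
IFIT1 holds 2 matches and IFI44 holds 1. Of the tested list members with a promoter in the table, 12 of 14 called lower, 1 of 2 called higher and 8 of 14 not called held the motif on either strand, beside 1255 of all 35116 promoters (3.57%). A gene was counted when any of its promoters held the motif, while the share over all promoters counts each promoter, so these measures are unlike. A match describes these letters and is not evidence of binding.

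Of 21 tested antigen presentation genes, 14 lay on chromosome 6, 3 on chromosome 5 and 1 on chromosome 15. Of the 21, 6 were called higher and 4 lower, beside 12.4% and 10.6% of all tested genes. Less the chromosome medians 1 was higher and 5 lower. None of the 3 on the rest of the genome was called. CD74, the invariant chain, lies on chromosome 5 and had 501, 487 and 410 normalized counts against 5, 4 and 5 (change 6.36, standard error 0.59, adjusted p = 1.24e-06, limma). Histone cluster genes, 27 of 31 on chromosome 6, were called higher in 4 and lower in 3; they were low, as in HIST1H3C with 4, 30 and 14 against 0 in each control, and reads of such near-identical genes may be shared.

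Among hexokinases and glucose transporters 2 of 11 tested genes were called higher and 1 lower, beside 12.4% and 10.6% of all tested genes. SLC2A3, the transporter GLUT3, had 958, 1029 and 1265 normalized counts against 42, 45 and 67 (change 4.39, standard error 0.19, adjusted p = 1.63e-09, limma). SLC2A8, the transporter GLUT8, was at 0 in all 3 libraries labelled HK3-null against 151, 116 and 135, at least 43.4-fold lower. HK1 fell by 0.58 (adjusted p = 0.0395, limma), and HK2 changed by −0.37 and did not pass (adjusted p = 0.105, limma). Of 20 glycolysis genes 1 was called higher and 3 lower, beside the same shares, with a median of −0.37. PFKM, the muscle form of phosphofructokinase, had 42, 36 and 43 against 633, 511 and 665 (change −3.86, standard error 0.14, adjusted p = 3.63e-10, limma), and PFKFB2, which sets the level of its activator, had 61, 64 and 50 against 6, 9 and 8 (change 2.78, adjusted p = 9.23e-06, limma; 0.24 on the deposited log2 scale).

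Antioxidant and glutathione genes were called higher in 3 of 37 and lower in 2, beside 12.4% and 10.6% of all tested genes. Their median was 0.03. GSR, glutathione reductase, on chromosome 8, had 4584, 4542 and 4559 against 1588, 1583 and 1382, a change of 1.59, or 0.54 less the median of its chromosome. PRDX2, a peroxiredoxin, had 228, 236 and 200 against 744, 726 and 744 (change −1.74, standard error 0.10, adjusted p = 1.83e-08, limma), and NQO1, a quinone reductase, had 89, 85 and 55 against 170, 174 and 181 (change −1.22, adjusted p = 0.000145, limma). Oxidative phosphorylation subunits were called lower in 9 of 73, near the 10.6% of all tested genes, and higher in 0, with a median of −0.51. On chromosomes 5 and 15 lay 7 of the 9. On the rest of the genome 2 of 62 were called lower (3.23%, beside 8.13% of all tested genes there), while the median there was −0.50. Without the fold threshold 65 of 73, and 54 of 62 on the rest, had an adjusted p under 0.05 (limma), beside 61.2% of all tested genes. ATP5G1, a subunit of the ATP synthase, had 1978, 2121 and 1568 against 4891, 5168 and 4549 (change −1.38, adjusted p = 7.49e-08, limma).

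Of 25 genes of the integrated stress response 3 were called higher and 5 lower, with a median of −0.60, beside 12.4% higher and 10.6% lower over all tested genes. On the rest of the genome 3 of 22 were higher and 3 lower, with a median of −0.23. Less the chromosome medians 3 of the list were higher and 3 lower. DDIT4L, an mTORC1 inhibitor, had 318, 306 and 337 normalized counts and was at 0 in all 3 controls, at least 95.3-fold higher, while PHGDH, of serine synthesis, had 233, 211 and 178 against 6214, 5605 and 5623 (change −4.81, standard error 0.10, adjusted p = 4.58e-12, limma). Of 36 heat shock genes 4 were called higher and 3 lower, near the shares over all tested genes, the 3 all on chromosome 5. HSPB1, a small heat shock protein, had 609, 645 and 538 against 157, 148 and 145 (change 1.98, standard error 0.12, adjusted p = 2.06e-08, limma). BAG3 had 74, 84 and 65 against 11, 15 and 37 (change 1.95, adjusted p = 0.0159, limma), which rose to 0.0655 without Cas9 control ATRA replicate 1 and 0.0517 without replicate 2.

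Lysosome and V-ATPase genes were called higher in 18 of 41 and lower in 1, LIPA, with a median of 0.85. On the rest of the genome 10 of 27 were higher (37.0%, beside 11.0% of all tested genes there). CTSD, cathepsin D, had 158278, 162525 and 159622 normalized counts against 27729, 26913 and 30927 (change 2.49, standard error 0.06, adjusted p = 2.36e-11, limma), and its difference was larger than in DMSO (interaction 1.41, adjusted p = 1.96e-06, limma). SGSH, a sulfatase of heparan breakdown, had 628, 647 and 601 against 2, 2 and 4. NEU1, a sialidase on chromosome 6, had 3822, 3670 and 4518 against 799, 872 and 1184 (change 2.09, standard error 0.14, adjusted p = 4.85e-08, limma). Autophagy genes were called higher in 8 of 35 and lower in 0, beside 12.4% and 10.6% of all tested genes. Of the 8, SQSTM1 lay on chromosome 5 and RB1CC1 on chromosome 8. Of 30 tested on the rest of the genome 6 were higher and 0 lower, beside 11.0% and 8.13% of all tested genes there. Among these 6, ATG9A had 1758, 1850 and 2376 against 463, 544 and 707 (change 1.81, adjusted p = 2.95e-07, limma). Cholesterol genes were called higher in 6 of 26 and lower in 0, and 3 of the 6 lay on chromosomes 6 and 8. On the rest of the genome 3 of 21 were higher (14.3%), near the 11.0% of all tested genes there. Less the chromosome medians 4 of the list were called higher. CYP51A1, of sterol synthesis, had 1956, 2031 and 3253 against 563, 567 and 697 (change 1.95, standard error 0.18, adjusted p = 9.85e-07, limma).

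Among 31 proteasome subunits 1 was called, PSMA4 on chromosome 15, lower by 1.22, and among 82 ribosomal protein genes 4 were lower, all on chromosomes 5 and 15, and 2 higher, RPL30 on chromosome 8 and RPL39L on chromosome 3, the latter not past the test with a count of 8 added (adjusted p = 0.117, limma). RPL4, on chromosome 15, had 55136, 57889 and 48638 normalized counts against 133243, 136704 and 125463 (change −1.29, standard error 0.07, adjusted p = 6.94e-09, limma), or −0.33 less the median of its chromosome. Numbered zinc finger genes, many of which code for repressors, were called higher in 46 of 398 and lower in 22. On the rest of the genome 38 of 364 were higher (10.4%), near the 11.0% of all tested genes there. Lower calls numbered 19 there (5.22%), below the 8.13% of all tested genes. The list held several on and off differences. ZNF85 had 199, 211 and 175 against 0 in each control, at least 58.0-fold higher. ZNF441 was at 0 in each library labelled HK3-null against 358, 312 and 306, at least 105-fold lower.

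The largest rises and falls on each shifted chromosome were taken 2 each way by rule, so their directions are no finding. On chromosome 5 ZNF300 had 679, 672 and 558 normalized counts against 0, 1 and 0, and NKD2, a Wnt pathway antagonist, had 0, 1 and 1 against 2429, 2639 and 1869. TRIO, a guanine nucleotide exchange factor, had 1, 3 and 1 against 1282, 1793 and 1346. On chromosome 6 ZSCAN12 had 327, 268 and 202 against 0, 2 and 3, and ITPR3, a calcium channel of the endoplasmic reticulum, had 1, 3 and 0 against 360, 367 and 331. ENPP4, an ectoenzyme, had 2, 3 and 2 against 172, 158 and 176.

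On chromosome 8 LAPTM4B, a lysosomal membrane protein, had 4938, 5022 and 3875 normalized counts against 1, 6 and 9. Against the direction of that chromosome ADGRB1, an adhesion receptor, had 24, 22 and 13 against 972, 701 and 671 (change −5.27, standard error 0.23, adjusted p = 1.64e-09, limma), and FGFR1, a growth factor receptor, had 17, 16 and 11 against 118, 84 and 91 (change −2.66, standard error 0.21, adjusted p = 3.09e-07, limma). On chromosome 13 DNAJC15 had 621, 621 and 553 against 0, 1 and 4, WASF3 had 312, 289 and 184 against 0 in each, at least 77.9-fold higher, and MBNL2, a splicing factor, was at 0 in each against 143, 122 and 179, at least 47.9-fold lower. DZIP1 had 12, 4 and 2 against 64, 48 and 67.

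On chromosome 15 THBS1, thrombospondin 1, was the largest rise, with 15296, 13285 and 11043 normalized counts against 66, 84 and 140 (change 7.14, standard error 0.98, adjusted p = 3.97e-05, limma). In DMSO it had 97, 90 and 58 against 205, 5 and 6, the 205 being in Cas9 control DMSO replicate 1. The change in DMSO was 1.98 and the interaction 5.16 (adjusted p = 0.0347, limma), and without that library they were 3.64 and 3.50 (adjusted p = 0.000295, limma). ATP10A, a lipid flippase, had 177, 167 and 174 against 0, 1 and 0, with means of 24.3 and 1 in DMSO (interaction 3.12, adjusted p = 0.0133, limma). CKMT1B, a creatine kinase with a near-identical copy, had 0, 0 and 1 against 93, 91 and 65, and IVD, of leucine breakdown, had 37, 20 and 37 against 1889, 1877 and 1768 (change −5.89, standard error 0.35, adjusted p = 2.12e-08, limma).

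Off these chromosomes the 6 largest rises were in TP53I11, GALC, B3GNT7, TMEM185B, ARHGAP21 and ARSD, with changes of 8.41 to 9.19 as fitted. GALC, a lysosomal galactosidase, had 779, 692 and 682 normalized counts against 0, 1 and 0, and B3GNT7, a glycosyltransferase, had 5410, 5045 and 4125 against 6, 14 and 6. ARSD was at 0 in each control against 367, 309 and 347, at least 101-fold higher. The 6 largest falls were in SLC38A5, GALNT14, IGFBP2, EMC10, TMEM63C and ZNF441. SLC38A5, a glutamine transporter, had 5 in each library labelled HK3-null against 4258, 4008 and 3523, IGFBP2, which binds insulin-like growth factors, had 6, 2 and 1 against 1714, 1597 and 1376, and EMC10 had 2 in each against 1124, 1128 and 1012.

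Whether the genotype difference in ATRA was the one already present in DMSO was tested as an interaction between genotype and treatment. It passed for 1317 of 13429 tested genes (9.81%), and for 1085 without Cas9 control DMSO replicate 1, of which 1018 were shared. With the replicate number as a block it passed for 3175. Among the 152 genes named by rule, 39 had an interaction, and 34 of these kept it without that library. Differences larger in ATRA included those of THBS1, TGM2, CYP26A1, GNLY, ATP10A, PRG2, DDIT4L, LYZ, BMF, PMAIP1 and CTSD. GNLY, granulysin, had 26, 19 and 15 normalized counts against 0, 2 and 1, and its interaction was 3.14 (adjusted p = 0.0116, limma). Differences smaller in ATRA included those of HK3, CYBB, NCF1, ICAM1, S100A8 and BPI, the last with an interaction of −1.25 (adjusted p = 0.000139, limma). PHGDH fell further in ATRA than in DMSO (interaction −2.20, adjusted p = 1.96e-06, limma), and so did ADGRB1 (interaction −2.82, adjusted p = 0.000188, limma).

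**Figure D5:**
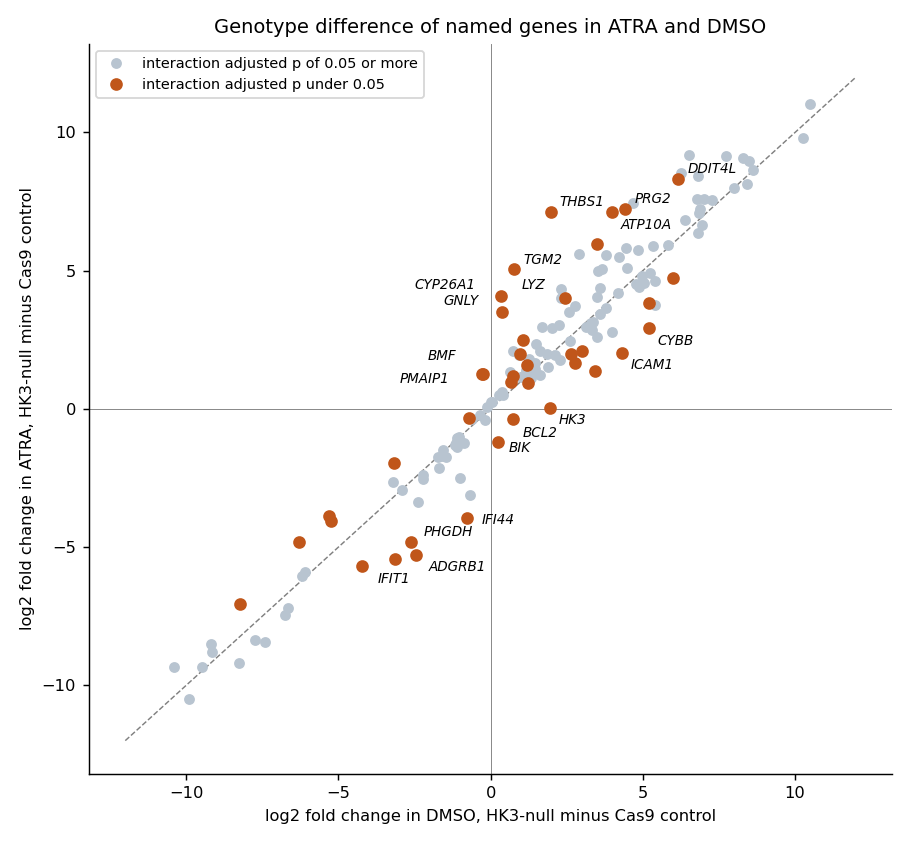
Log2 fold change between libraries labelled HK3-null and Cas9 control in DMSO (horizontal axis) and in ATRA (vertical axis) for the 152 named genes. The dashed line marks equal change; orange points, 39 in number, have an interaction adjusted p under 0.05, with THBS1 (5.16) farthest above the line.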

How the data were processed

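RNAseq of 12 libraries (4 groups of 3) was used; ATACseq of the same cells was not analysed here. Per the methods, directional libraries were read from both ends and mapped to GRCh38; the authors deposited a log2 value per gene. The methods text names RPKM, but 2 to the power of each deposited log2 value lies within 0.00336 of a whole number among low values, with 0 written as log2 of 0.001, and DESeq2 is named in the submitters' processing notes. The RNA aligner and counter are not stated (not given in the sources used here). Depth was estimated from gaps and doublings among these whole numbers. Entries without a gene name (330 of 28381) held at most 0.00926% of counts and were left out. Chromosomes and positions come from RefSeq, with 25221 genes matched by symbol and 1289 by synonym.

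Values were refitted as log2(normalized count + 1) in R 4.3.3 with limma 3.58.1 (lmFit, eBayes with a trend), 1 mean per group, because the written 0 inflates the spread of low genes. The fit was tested on simulated data. P-values measure the spread between these samples. Floors of 3 counts per library, scaled, cover counting error only. No 2 libraries held identical values. In 10667 genes averaging at least 50 normalized counts, deviations from the group means correlated at 0.178 to 0.631 in all 18 pairs with the same replicate number and at −0.643 to 0.286 in the 36 others, so the numbers pair the libraries, by the data and not by a label.

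The members, the 38 gene lists and the tests were chosen with earlier results of these data known. Named genes are HK3, BBC3, BMF, PMAIP1, TNF and IER3, tested members of lists of at most 9 genes, the largest called changes with separate groups and a mean of at least 50 in the higher group (2 each way on chromosomes 5, 6, 8, 13 and 15, 6 each way on the rest, unnamed loci, antisense RNAs and pseudogenes aside), and the largest called members of each list, 3 on the rest and 1 on the 5 chromosomes. Alternatives were the deposited scale, an added count of 8, no filter, a filter at 5, quantile normalization, only ATRA libraries, the replicate block, leaving out each library, calls at 1.5-fold with p under 0.05 before adjustment, after the methods text, and subtraction of chromosome medians. Promoter sequences are from RefSeq, GRCh38.p14. Some genes that the rule names are not reported here.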

Additional observations from a re-analysis of the deposited data

Results flagged for a closer look

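The genotype difference in ATRA differed from that in DMSO for 39 of the 152 named genes, by limma's interaction term with an adjusted p under 0.05. For those reported here, each value is the log2 difference in ATRA minus that in DMSO. Among genes of cell death it was 1.54 for BMF, 1.51 for PMAIP1, −1.42 for BIK, −1.10 for BCL2 and −1.11 for BCL2A1. HK3 had −1.89. In the NADPH oxidase it was −2.29 for CYBB, −2.06 for NCF1, 0.29 for NCF4, 0.39 for RAC1 and −0.30 for RAC2.

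Among myeloid and immune genes it was −2.29 for ICAM1, −1.25 for BPI, 1.57 for LYZ, 2.81 for PRG2, −1.37 for S100A8, 3.14 for GNLY, 1.00 for NKG7, −2.31 for IFIT1, 1.48 for LGALS3BP and −3.18 for IFI44. Retinoid genes had 4.28 for TGM2 and 3.73 for CYP26A1. In metabolism, stress and the cell cycle it was 0.41 for GSR, 1.16 for SLC2A8, 1.44 for PFKM, 1.20 for CCND2, 2.17 for DDIT4L, −2.20 for PHGDH, −0.67 for HSPB1 and 1.41 for CTSD. Of the genes with the largest changes on their chromosomes it was −1.46 for ENPP4, −2.82 for ADGRB1, 5.16 for THBS1 (3.50 without Cas9 control DMSO replicate 1) and 3.12 for ATP10A.

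Where a group was at or near 0, as in CYP26A1, IFI44, SLC2A8 and DDIT4L, the fitted size depends on the count of 1 that was added. Without Cas9 control DMSO replicate 1 the interaction did not pass for BIK (adjusted p = 0.0684, limma), NCF4 (0.0794), RAC2 (0.0548), GSR (0.0514) and SLC2A8 (0.075).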

How the results depend on the processing

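The median shifts of chromosomes 5, 6, 8, 13 and 15 kept their sign under every alternative that could change it. Subtraction of chromosome medians removes the shifts by construction, and the thresholds of the methods text leave the medians as they are. The number called in ATRA lay between 2448 and 5279. With an unadjusted p under 0.05 and a 1.5-fold threshold, as in the methods text, 5279 genes were called, 2749 higher and 2530 lower, of which 387 lay on chromosome 5, 366 on 6, 352 on 8, 129 on 13, 326 on 15 and 3590 on the rest. With chromosome medians subtracted, 109 were called on chromosome 5, 80 on 8, 39 on 13 and 84 on 15. Without a filter on low values the medians were −0.60, 0.33, 0.83, −0.39 and −0.78 on chromosomes 5, 6, 8, 13 and 15 and 0.0 on the rest. With a count of 8 added they were −0.72, 0.52, 0.98 and −0.87 on chromosomes 5, 6, 8 and 15, and after quantile normalization −0.84, 0.52, 1.01 and −1.03, with −0.03 on the rest. The stricter filter gave 0.03 on the rest. Quantile normalization moved the median of all tested genes by −0.05, and 49.9% of its calls were higher, against 53.9%.

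Leaving out each library in turn gave 2970 to 3161 called, 1600 to 1746 higher and 1362 to 1441 lower, with 226 to 248 on chromosome 5, 184 to 201 on 6, 230 to 235 on 8, 66 to 72 on 13, 199 to 208 on 15 and 1971 to 2129 on the rest. Medians ran from −0.80 to −0.77 on chromosome 5, 0.53 to 0.57 on 6, 1.04 to 1.07 on 8, −0.58 to −0.54 on 13, −0.97 to −0.94 on 15 and 0.01 to 0.03 on the rest, and interactions numbered 940 to 1272. HK3 ran from −0.13 to 0.22, and lay below 0 in 3 cases: −0.03 when Cas9 control ATRA replicate 1 was left out, −0.03 when replicate 2 of that group was, and −0.13 when HK3-null ATRA replicate 3 was; the cause was not tested.

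With the replicate number as a block the interaction passed for 3175 genes rather than 1317, including all 39 of the named ones and 20 more, and BID passed in ATRA (adjusted p = 0.000858, limma). The block changed the side of the threshold in ATRA for no other named gene and moved no count of a list or chromosome by over 1.5 times.

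Over all named genes and alternatives 2997 values kept their direction and side of the threshold, 26 no longer passed, 4 newly passed and 3, all of HK3, changed sign. Depth limits genes listed at 0, for which bounds are given.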
